A study of Mus musculus with 6 samples.

Results

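The cytosolic ribosomal proteins are the protein parts of the ribosome that works outside mitochondria. They were taken from the table of liver genes by symbol: every gene named Rpl or Rps with a number, plus Rplp0, Rplp1, Rplp2 and Rpsa, leaving out the Rps6k kinases and pseudogenes. The rule found 87 of 16123 genes. Of these, 46 encode proteins of the large subunit, its stalk included, 31 encode proteins of the small subunit, and 10 are paralogs or a binding protein whose symbols fit the same pattern. All 87 were matched by gene identifier to RefSeq, and they lie on 19 chromosomes.

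RNA of whole liver was sequenced in 3 libraries from mice trained on a treadmill and in 3 from sedentary mice that did no treadmill running. Trained mice ran 22 km each over 6 weeks, and their livers were taken 24 h after the last session. All mice were healthy adults perfused with phosphate-buffered saline, and the labels used here give no strain, sex, genotype or exact age. Nothing beyond the sample names says how the 3 libraries of a group were raised, or whether each came from its own mouse. The p-values therefore measure the spread between these libraries.

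A ribosome joins a small subunit, which reads the messenger RNA, to a large subunit, which links the amino acids. Each subunit holds ribosomal RNA and one copy of most ribosomal proteins, so cells make these proteins in matched amounts. Their messenger RNAs carry a run of pyrimidines at the 5′ end, the terminal oligopyrimidine or TOP motif, through which the growth-sensing kinase mTORC1 controls their translation. That control acts on ribosome loading and can leave the messenger RNA level as it was, so RNA counts report the amount of template and not its translation.

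Most of these genes had slightly more messenger RNA in the trained livers. By edgeR's quasi-likelihood test, adjusted over all 10266 genes tested, 44 of the 85 tested ribosomal protein genes rose, 2 fell and 39 did not pass an adjusted p of 0.05. Over all genes tested, 19.1% rose and 19.0% fell by the same rule. Abundant genes had larger shares of calls: at a mean FPKM (the deposited level scaled by length and depth) of at least 300, 32 of 58 members rose and 1 fell, while 36.3% of the 270 other genes rose and 37.8% fell. Median log2 fold changes (exercise over sedentary) in that class were 0.08 and 0.02. The differences were small: the median log2 fold change (exercise over sedentary) of the 85 genes was 0.08, against -0.000622 over all genes, and the range was -0.18 to 0.29. Positive values were found for 76 of 85 genes, or 89.4%, against 49.8% of all genes. Only Rps19bp1, which encodes a binding protein and no ribosome subunit, lay past a 1.2-fold difference, and edgeR's test against that size called 0 members, with 0 at an unadjusted p under 0.05. By that test 2.33% of all genes were called higher and 4.03% lower.

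The number of calls varied with the fit and with the libraries included. Without exercise replicate 3, 27 members rose, 23 of them among the 44, and 1 fell, while 17.1% of all genes rose and 16.9% fell. Without exercise replicate 2, 49 rose and 2 fell, against 16.7% and 16.5%. Leaving out sedentary replicate 3 gave 32 higher, sedentary replicate 2 or exercise replicate 1 gave 37, and sedentary replicate 1 gave 40. Each of these fits called 2 lower. The shares of all genes called in them are not given here, so these counts have no background beside them. DESeq2 called 22 higher, all of them among the 44, against 12.4% of all genes, and 0 lower, with 1 at an unadjusted p under 0.05, against 12.1%. On library totals without TMM, the scaling by trimmed means used otherwise, 77 rose, but so did 34.5% of all genes, and 11.7% fell. Totals without the 20 most abundant genes gave 61 higher and 1 lower, against 25.2% and 15.3%. Limma on FPKM gave 66 higher on log2(FPKM + 1) and 65 on log2(FPKM + 0.1), against 27.9% and 27.8%, with 1 lower in each against 10.7%. On log2(TPM + 1), 74 rose and 1 fell, against 36.2% and 8.91%. Quantile normalization gave 28 higher and 1 lower, against 18.6% and 16.3%, and without a filter on low values 41 of 87 rose and 1 fell, against 12.3% and 12.0%.

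Annotated transcript starts of 10 members are shown because the TOP motif is the sequence feature this family is known for. Each line gives 15 bases before the start and 15 from it on, 5′ to 3′ on the gene's strand, from RefSeq on GRCm38.p6. Capitals mark the unbroken pyrimidine run that begins at the first transcribed base.
Rpl35a: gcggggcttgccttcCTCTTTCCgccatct
Rpl28: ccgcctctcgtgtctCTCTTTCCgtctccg
Rpl35: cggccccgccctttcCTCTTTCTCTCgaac
Rps27: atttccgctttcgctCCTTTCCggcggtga
Rps10: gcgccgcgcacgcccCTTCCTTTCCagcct
Rpl15: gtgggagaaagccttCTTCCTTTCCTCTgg
Rplp2: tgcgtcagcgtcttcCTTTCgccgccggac
Rpl38: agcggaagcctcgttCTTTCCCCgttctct
Rpsa: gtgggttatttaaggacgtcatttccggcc
Rplp0: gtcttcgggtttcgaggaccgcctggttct

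The windows lie at chr16:33056467-33056496 on the plus strand for Rpl35a, chr7:4792950-4792979 plus for Rpl28, chr2:39005117-39005146 minus for Rpl35 and chr3:90213634-90213663 minus for Rps27. Those of Rps10 and Rpl15 are chr17:27635230-27635259 and chr14:18270972-18271001, both minus. Rplp2 lies at chr7:141447636-141447665, Rpl38 at chr11:114668565-114668594, Rpsa at chr9:120127751-120127780 and Rplp0 at chr5:115559452-115559481, all plus. Each window joins the upstream promoter to the start of the 5′ untranslated region. Rpsa and Rplp0 are the examples without the run at the annotated start, although most members with a window lack it, as counted below.

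RefSeq promoter windows, 250 bases before to 50 after a start, were found for 67 of the 87 members. A C at an annotated first base followed by at least 4 C or T was present in 15 of the 67, or 22.4%, against 3.01% of 27025 genes. A run of at least 8 pyrimidines within 10 bases of the start was present in 22 members, or 32.8%, against 8.71% of genes. On either strand of the whole 300-base window, CTTTCC was found in 52.2% of members and 29.3% of genes, and some of these matches are the pyrimidine run itself. CCGGAAG, the letters bound by ETS-family factors, was found in 38.8% of members and 9.93% of genes, and AAGATGG, letters within the YY1 motif, in 14.9% and 7.28%. Annotated starts can miss the used start by a few bases, and a match in these letters is a description only.

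Members with the run at any annotated start and members without it are set side by side here, and their difference was not tested. Of the 15 with it, 7 rose and 1 fell, with a median log2 fold change of 0.08. Of the 50 tested members whose window lacked it, 24 rose and 1 fell, with a median of 0.07. Rpl35a, the member with the smallest adjusted p, carries it at the annotated start printed above, but not at its other annotated starts, 33056453 and 33056514. Rpl38, the gene that fell furthest, carries it too.

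Among the large subunit genes, 23 of 46 rose and 1 fell, with a median log2 fold change of 0.07. Values below are CPM, read counts scaled to a common library size with TMM, in replicates 1, 2 and 3. Rpl35a, a large subunit protein that is mutated in some patients with Diamond-Blackfan anaemia, had 101, 93.4 and 89.8 in sedentary and 109, 109 and 113 in trained livers. All trained values lay above all sedentary ones, and the log2 fold change was 0.22 (SE 0.035, adjusted p = 1.38e-06, edgeR). Rpl30, whose protein binds its own transcript in yeast, had 104, 96.8 and 96.8 against 110, 106 and 122, a log2 fold change of 0.18. Rpl37a, a small zinc-binding protein, had 123, 133 and 127 against 146, 136 and 152, also 0.18. Rpl24, which bridges the large subunit to the small one, had 125, 125 and 125 against 134, 139 and 140. In each of these genes the 2 groups did not overlap, and the rises were below a 1.2-fold size.

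Other large subunit genes, picked for their known roles after values were seen, included some that passed and some that did not. Rpl7a had 378, 370 and 362 CPM against 394, 398 and 417 (log2 fold change 0.12), and Rpl10, the protein next to the transfer RNA sites, had 474, 461 and 478 against 508, 487 and 495 (0.08). Rpl5, which binds the 5S ribosomal RNA and can restrain Mdm2, passed with 234, 244 and 250 against 247, 256 and 261, although the groups overlapped. Its partner in that complex, Rpl11, did not pass (log2 fold change 0.06, adjusted p = 0.101, edgeR). Rpl3, close to the peptidyl transferase centre, stood at 278, 265 and 268 against 274, 270 and 277. The 22 large subunit genes that did not pass had log2 fold changes between -0.04 and 0.08.

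Rpl38 fell, against the direction of the other large subunit genes that passed. This protein is known for its part in translating Hox transcripts in the mouse embryo. It had 34.3, 32.9 and 33.4 CPM in sedentary and 29.4, 28.4 and 30.9 in trained livers, with no overlap. The log2 fold change was -0.18 (SE 0.051, adjusted p = 0.00411, edgeR), with adjusted p = 0.0505 in DESeq2 and 0.0974 on library totals without TMM. The gene lies on chromosome 11 from 114667818 to 114672333 (GRCm38.p6).

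The stalk genes, whose proteins recruit the elongation factors, did not pass the test. Rplp0, the base of the stalk and a common reference gene in quantitative PCR, had 455, 453 and 455 CPM against 459, 455 and 449. Rplp1 had a log2 fold change of -0.04 and Rplp2 of 0.01. The Rplp0 value was 0.00 (SE 0.022) with TMM scaling, and 0.08 (adjusted p = 0.00322, edgeR) on library totals without it, where the median of all genes itself moved to 0.08.

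The small subunit gave the same picture: 16 of 31 genes rose, 1 fell and 14 did not pass, with a median log2 fold change of 0.08. Rps28, a small protein at the messenger RNA exit, had 43.1, 44.9 and 42.7 CPM against 50.7, 47.2 and 49.3 (log2 fold change 0.17). Rps27, a zinc-finger protein, had 76.6, 75.2 and 72.8 against 84.4, 79.3 and 84.9 (0.15). Trained libraries lay above the sedentary ones in both genes.

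Rps3, at the messenger RNA entry, rose with a log2 fold change of 0.10, and so did Rps16, whose tail reaches the transfer RNA. Rps19, the gene most often mutated in Diamond-Blackfan anaemia, did not pass: it had 83.5, 82.8 and 81.1 against 84.7, 85.5 and 84.2, with a log2 fold change of 0.04 (SE 0.034). Rps2 had the most counts of any member, with 709, 673 and 696 CPM against 713, 684 and 704. Rps6, the substrate of the S6 kinases downstream of mTORC1, had 11.2, 10.4 and 12.6 against 10.7, 11.5 and 11.7, from 184 to 224 estimated counts a library. Such a count is far below that of the other subunit genes and was not whole, so the value is uncertain, and whether reads were shared with copies of the gene was not tested.

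Rpsa, the laminin receptor protein of the small subunit, fell in the test, but mainly through 1 library. It had 447, 439 and 433 CPM in sedentary livers and 430, 431 and 386 in trained ones. The log2 fold change was -0.08 (SE 0.027, adjusted p = 0.0140, edgeR). Without exercise replicate 3 it was -0.03 with adjusted p = 0.337, and DESeq2 gave adjusted p = 0.278. The gene lies on chromosome 9 from 120127766 to 120132369.

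**Figure D1:**
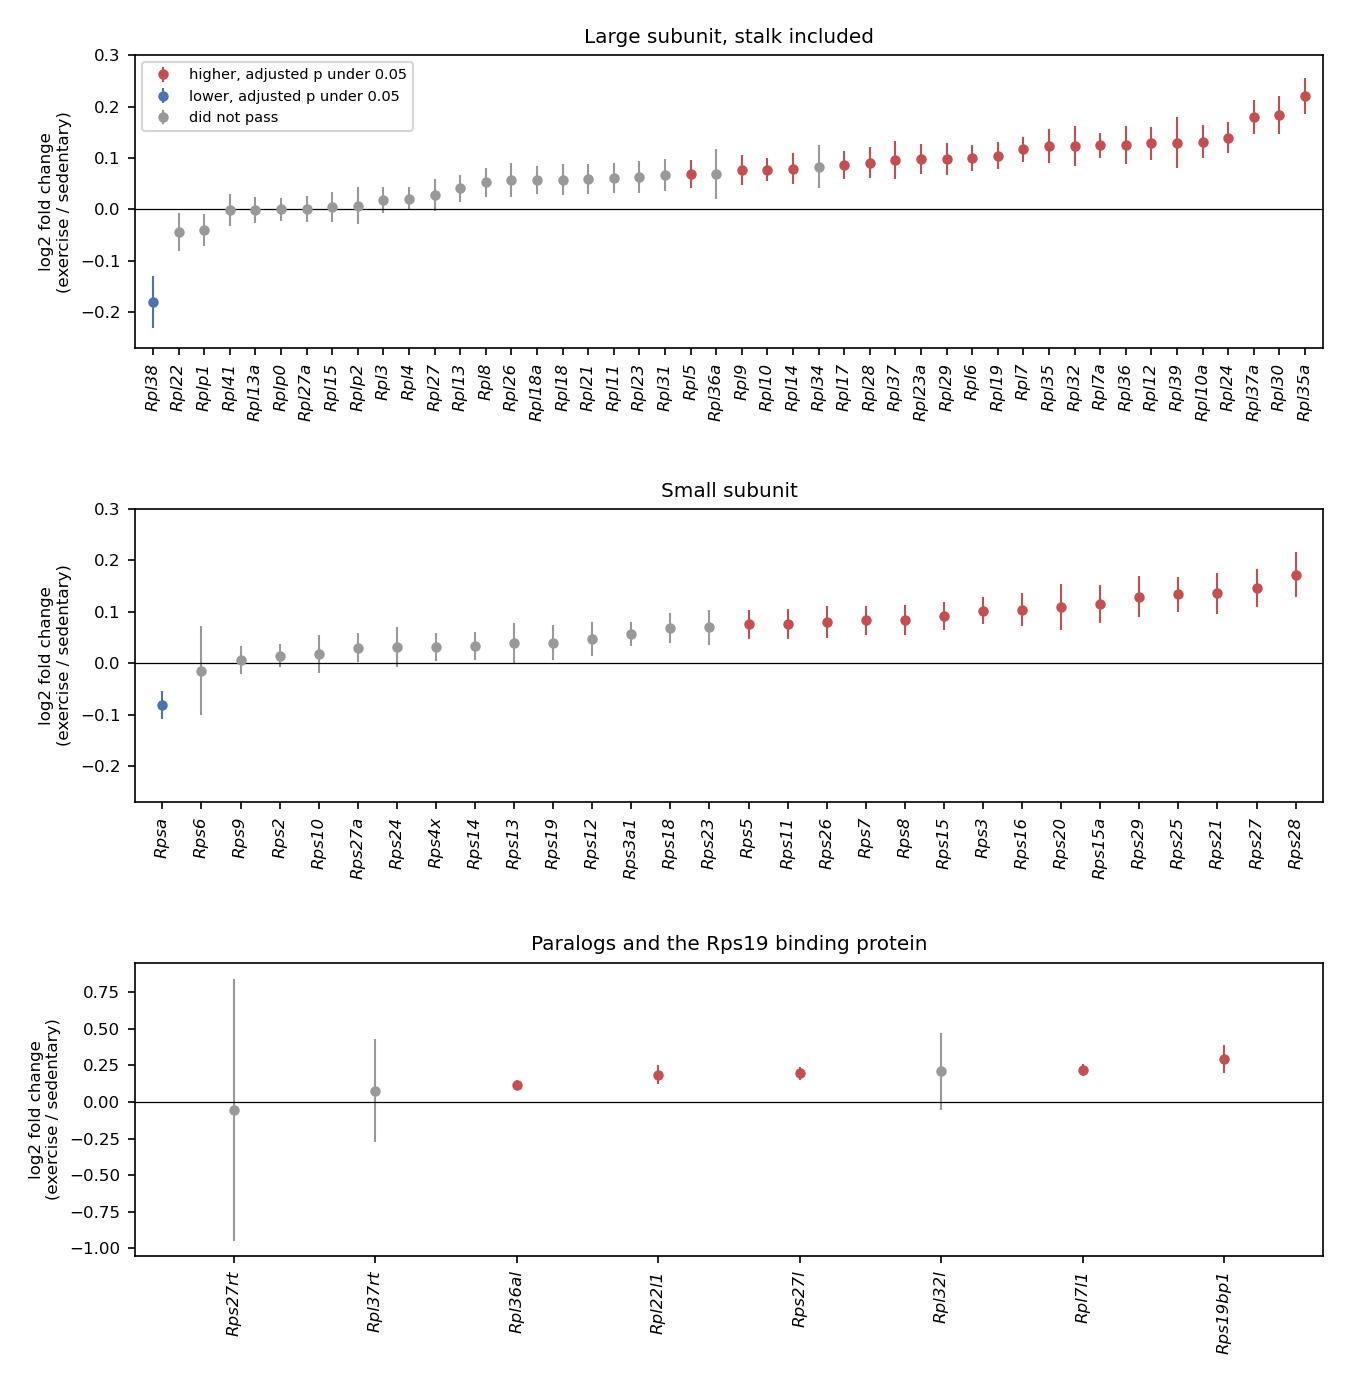
Log2 fold change (exercise over sedentary) of the tested genes reported here, in panels for the large subunit, the small subunit, and the paralogs with the binding protein; points are edgeR estimates, bars are standard errors, and colours give the call. Most points lie a little above 0, with Rpl38 and Rpsa the members called lower and wide bars on the paralogs with few counts.

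Paralogs replace a ribosomal protein in some tissues or arose as copies, and reads can be split between a paralog and its partner. Of the 8 genes tested in the group of paralogs and the binding protein, 5 rose and the others did not pass, with a median log2 fold change of 0.19. Rpl7l1, known from work on ribosome assembly, had 49.4, 54.0 and 53.2 CPM against 60.0, 62.3 and 59.8, a log2 fold change of 0.22 (SE 0.041). Its partner Rpl7 had 283, 286 and 279 against 307, 307 and 306 (0.12). Rps27l, a p53 target in human cells, had 75.6, 71.5 and 67.2 against 77.4, 78.2 and 89.8 (0.20), beside 0.15 for Rps27. Both genes of each pair rose, and the difference between the genes of a pair was not tested.

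Rpl22l1 and Rpl22 are known to regulate each other, and the difference between them was not tested. Rpl22l1 had 21.7, 26.9 and 20.3 CPM against 26.8, 26.3 and 25.3 (log2 fold change 0.19, adjusted p = 0.0220, edgeR). Sedentary replicate 2 lay as high as the trained libraries, and the call was lost in DESeq2 (adjusted p = 0.124). It was also lost on leaving out sedentary replicate 1 (adjusted p = 0.101) or 3 (0.247), or replicate 1 (0.0863) or 2 (0.0545) of the trained group, all by edgeR. Rpl22 had 72.9, 78.7 and 77.6 against 71.7, 76.4 and 74.2 (-0.04, adjusted p = 0.370, edgeR). Rpl36al, a copy of Rpl36a, rose (0.11) while Rpl36a was at 0.07 and did not pass.

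Rps19bp1, which binds Rps19 and is also known as an activator of the deacetylase Sirt1, had the highest log2 fold change of the tested members at 0.29 (SE 0.096, adjusted p = 0.0126, edgeR). Its values were 8.74, 8.34 and 7.37 CPM against 9.50, 9.68 and 10.8, without overlap. The adjusted p was 0.0884 in DESeq2, 0.0929 without sedentary replicate 3 and 0.0836 without exercise replicate 3. Rpl32l, Rpl37rt and Rps27rt had few counts and did not pass. The heart and muscle paralog Rpl3l and the testis-enriched Rpl39l were below the filter, with 3 and 1 reads over all 6 libraries, and were not tested.

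Summed over the 87 genes, ribosomal protein transcripts took a larger share of the trained libraries. The share of all counts was 1.368%, 1.354% and 1.346% in sedentary libraries and 1.505%, 1.468% and 1.513% in trained ones. The exact 95% binomial intervals, which cover counting error only, ran from 1.362% to 1.373% in sedentary replicate 1 and from 1.463% to 1.474% in exercise replicate 2, the nearest pair. The means were 1.356% ± 0.0111 and 1.495% ± 0.0240 (SD, n = 3), a ratio of 1.10, with no overlap.

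Part of that ratio is shared with genes at large. The 20 most abundant genes held 29.1% to 29.4% of sedentary and 26.8% to 27.2% of trained counts, and TMM factors were 0.972 to 0.977 and 1.03. After TMM scaling the summed level was 13930 ± 126 CPM in sedentary and 14555 ± 221 in trained livers (SD, n = 3), a ratio of 1.04. Relative to the median of all genes, the members' median log2 fold change lay between 0.06 and 0.10 above it under every setting tried. Settings that only rescale whole libraries move all genes nearly alike, so they could not test this difference. The test against a 1.2-fold change reuses the main fit. The large and small subunits moved together: the ratio of their summed counts was 1.62 ± 0.0157 in sedentary and 1.63 ± 0.0127 in trained libraries (SD, n = 3).

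Exercise replicate 3 was the highest library for 45 of the 85 genes, exercise replicate 1 for 18 and exercise replicate 2 for 10. Sedentary replicates 3 and 2 were the lowest for 31 and 28. The median deviation of the 85 genes from their own mean over the 6 libraries, in log2 CPM, was -0.03, -0.04 and -0.04 in sedentary replicates 1 to 3 and 0.04, 0.01 and 0.07 in the trained ones. Every trained median thus lay above every sedentary one, with exercise replicate 2 the nearest to the sedentary libraries. Its median lay closer to that of sedentary replicate 1 than to that of exercise replicate 3. Gene by gene, the scaled counts of the groups did not overlap in 37 members higher and 2 lower in training, or 39 of 85, against 47.0% of all genes, 23.3% higher and 23.7% lower.

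**Figure D2:**
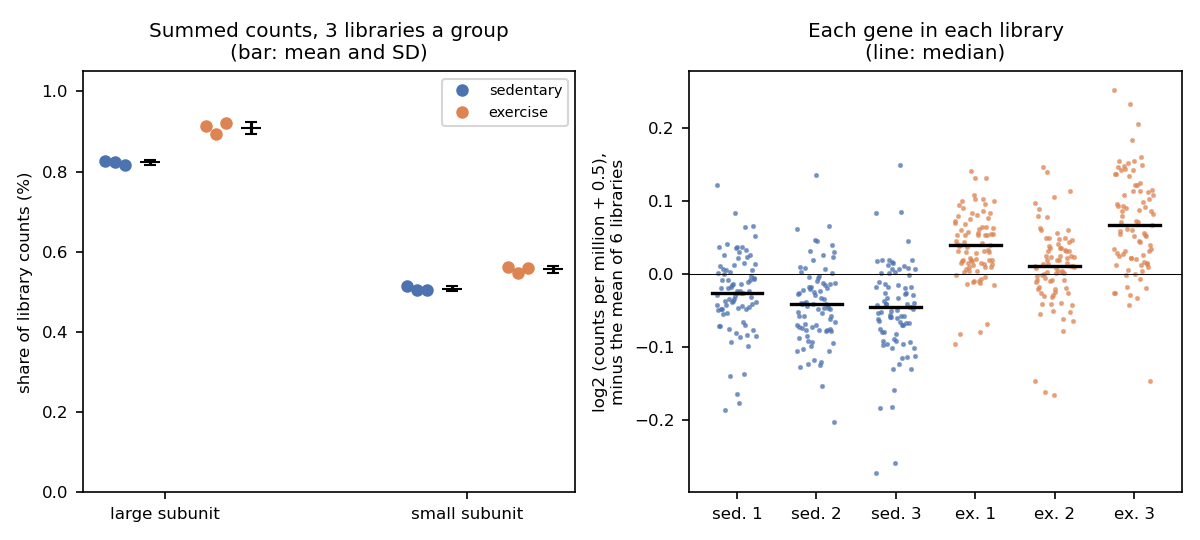
Left, share of all counts (%) held by large and by small subunit genes in each of 3 sedentary and 3 exercise libraries, with mean and SD as bars; right, deviation of each gene from its mean over 6 libraries in log2 CPM, with lines at the medians of 85 genes and points for 83 (the low-count Rps27rt and Rpl37rt are not drawn). The trained libraries hold larger shares of both subunits, and the cloud of exercise replicate 3 sits highest.

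The standard deviation of log2 fold change over the 85 genes was 0.0716, against 0.305 over all genes tested, 0.0898 over the mitochondrial ribosomal proteins and 0.0997 over the initiation factors. These spreads include counting error, which differs between the sets: the SE was 0.030 for Rpl24 and 0.047 for Mrpl24, which had fewer reads. The error was not taken out, so the spreads do not tell how evenly each set moved. In the 76 members with at least 1000 mean counts, the coefficient of variation within a group ran from 0.811% to 8.40%, with a median of 3.27%.

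**Figure D3:**
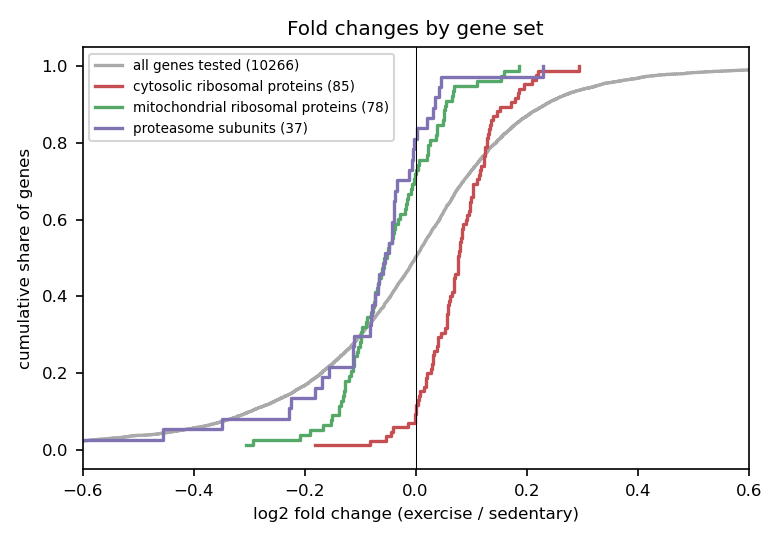
Cumulative share (0 to 1) of genes at or below each log2 fold change, drawn from -0.6 to 0.6, for the cytosolic ribosomal protein genes, the mitochondrial ribosomal protein genes, the proteasome genes and all genes tested. The cytosolic curve is steep and shifted to positive values, with a median of 0.08, while the mitochondrial and proteasome curves have medians of -0.05.

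Levels between genes were compared per length, as FPKM. Subunit genes ran from 10.5 for Rps6 to 1319 for Rps27, with a median of 433. Among the other highest were Rpl28, Rpl41 and Rps2, at 1055, 1012 and 1012. In 73 of the 77 subunit genes FPKM was at least 114. The exceptions were Rps6, Rps15a at 15.6, Rps20 at 25.0 and Rpl22 at 39.8.

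That length can be read from the table as count over FPKM. It was 4824 bases for Rps15a and 3135 for Rps20, far longer than the short transcripts of these genes, and 44.0 for Rpl38 and 60.0 for Rps27, so these FPKM levels are uncertain in opposite directions. The implied length was also larger in trained than in sedentary libraries for short genes, 42.3 and 44.8 bases for Rpl38, and by a ratio of 1.03 over genes below 150 bases and 1.01 from 300 to 600. FPKM fold changes of short members therefore differ from those of counts. The tests here rest on counts, which were not adjusted for this length difference, and its part in the rises of short members was not tested.

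The share of members called higher varied with implied length, a difference that was not tested. In the classes of implied length below 150, 150 to 300, 300 to 600, 600 to 1200 and above 1200 bases, 8 of 11, 12 of 25, 15 of 22, 5 of 19 and 4 of 8 members rose, with median log2 fold changes of 0.13, 0.08, 0.09, 0.06 and 0.08. In the shortest and in the longest class 1 member fell. Other genes of these classes had medians of 0.01, 0.02, -0.00, -0.03 and 0.00. Of those other genes 16.7%, 20.4%, 11.7%, 12.8% and 20.1% rose, and 6.25%, 11.5%, 14.6%, 18.6% and 19.6% fell. Over the 85 members, log2 length and log2 fold change had a Pearson correlation of -0.10 and a Spearman correlation of -0.27 (-0.19 and -0.34 over the 77 subunit genes), points that share libraries and counting. At an FPKM of at least 100 and below 600 bases, 34 of 54 members rose and 1 fell (median 0.09), while 26.6% of the 169 other genes rose and 18.9% fell (median 0.03). At that level and 600 bases or longer, 6 of 22 members rose and 1 fell (median 0.06), while 33.4% of the 574 other genes rose and 34.3% fell (median 0.01), so the share of longer members that rose was not above that of other genes.

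Ribosomal proteins of mitochondria, which build the separate ribosome for the mitochondrial genome, did not share the rise: 2 of 78 rose and 7 fell, with a median log2 fold change of -0.05. Proteasome subunits, another large complex made in matched amounts, counted 1 rise and 10 falls among 37, and their median was also -0.05. Differences between these sets and the cytosolic ribosomal proteins were not tested.

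Elongation factors and other genes with TOP messenger RNAs outside the rule were read beside the ribosomal proteins. Of 19 tested, 7 rose and 1 fell, with a median log2 fold change of 0.05. Naca, a subunit of the nascent polypeptide-associated complex, had 170, 172 and 167 CPM against 182, 188 and 191 (0.14). Fau, whose product is cleaved into the small subunit protein of the ribosome usually called Rps30, rose by 0.11 on the log2 scale. Hnrnpa1, an RNA-binding splicing regulator, was the 1 that fell, with 59.4, 56.2 and 59.3 against 42.7, 42.7 and 44.0 (-0.44).

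Ribosome assembly and rRNA processing factors held 13 genes that rose and 2 that fell among 38, and their median was 0.08. Ddx21, a nucleolar helicase, had 43.1, 40.7 and 39.8 CPM against 52.7, 47.6 and 48.2 (log2 fold change 0.27). Bysl, needed for small subunit maturation, rose by 0.30 and Nolc1, a nucleolar phosphoprotein, by 0.24. Riok2, a late small subunit kinase, fell (-0.23), as did Nhp2, a protein of the pseudouridylation complexes (-0.17).

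RNA polymerase I, which transcribes the ribosomal RNA, and its factors were mixed, with 2 of 15 higher and 2 lower. Polr1b, its second largest subunit, rose by 0.21 on the log2 scale. Myc, a transcription factor known to raise ribosome production, fell: it had 4.76, 5.30 and 5.29 CPM in sedentary and 1.77, 1.14 and 1.30 in trained livers (log2 fold change -1.86, SE 0.17, adjusted p = 1.11e-12, edgeR). Taf1b, a promoter factor of polymerase I, fell by 0.76. The groups did not overlap for either gene, and the fall of Myc was the largest in this list.

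Of the mTORC1 pathway and its TOP controls, 3 of 24 genes rose and 4 fell. Sesn2, an amino acid sensor that restrains mTORC1, had 4.99, 4.68 and 3.32 CPM against 6.87, 6.14 and 6.66 (log2 fold change 0.60). Sesn1 of the same list fell (-0.19, adjusted p = 0.0477, edgeR), and Sesn3 did not pass. The mTOR inhibitor Deptor rose by 0.09, and the tuberous sclerosis complex genes Tbc1d7 and Tsc1 fell (-0.35 and -0.14). RNA levels of these genes do not report kinase activity, which was not measured in the files used here.

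Initiation factors had 8 of 27 genes higher and 1 lower. Eif4g2, a scaffold for cap-independent initiation, had 415, 413 and 415 CPM against 445, 462 and 450 (log2 fold change 0.13). Eif2b3, a subunit of the exchange factor for eIF2, fell (-0.32). Of 10 genes of nascent chain handling and ribosome quality control, 5 rose, among them the ribosome-bound co-chaperone Dnajc2 (log2 fold change 0.20), Pelo, the ribosome rescue factor, with 15.5, 13.6 and 14.5 against 20.8, 17.7 and 20.8 (0.44), and Nemf, which marks stalled chains, with 0.32.

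Liver tissue holds several cell types, and in bulk RNA fewer cells of a type and less RNA per cell cannot be told apart. Summed markers of hepatocytes ran from 125134 to 128109 CPM in sedentary and from 120098 to 121274 in trained livers, with 5 of 11 genes higher and 5 lower, so hepatocyte RNA is present as labelled in all libraries. Kupffer cell and macrophage markers ran from 639 to 651 and from 495 to 512, with 10 of 12 lower, and erythroid markers from 188 to 194 and from 169 to 171, with 4 of 5 lower.

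Endothelial markers ran from 316 to 321 against 353 to 361 (4 of 10 higher) and stellate cell markers from 301 to 308 against 362 to 366 (5 of 9 higher, 1 lower). Cholangiocyte markers ran from 76.1 to 80.0 against 38.7 to 42.0, and 1 of 2 tested was lower. Most of that sum was Spp1, which other cells can express too, with 70.4, 69.7 and 67.4 against 32.4, 32.5 and 34.1, while Sox9 had 6.33, 5.30 and 5.29 against 3.65, 4.62 and 5.36 and did not pass. Pancreatic acinar markers ran from 15.2 to 16.1 against 6.17 to 6.66, and 2 of 2 tested were lower. Most of the trained sum was Cela1, with 8.91, 8.62 and 9.18 against 5.74, 6.09 and 6.55. Amy2a5 had 2.97, 3.10 and 3.49 in sedentary and 0 in every trained library. Cela3b, Cpa1, Cpb1, Ctrb1, Pnlip, Prss2 and Cel, at no more than 0.958 in sedentary libraries, were also at 0 in every trained one. Markers of cycling cells ran from 51.8 to 55.2 against 42.6 to 46.5. Lymphocyte markers (7.54 to 9.24 against 7.12 to 7.89) and neutrophil markers (4.85 to 6.36 against 4.40 to 5.30) overlapped. No marker of these lists was at 0 in all 6 libraries, and the part of these cell types in the ribosomal protein result was not tested.

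**Figure D4:**
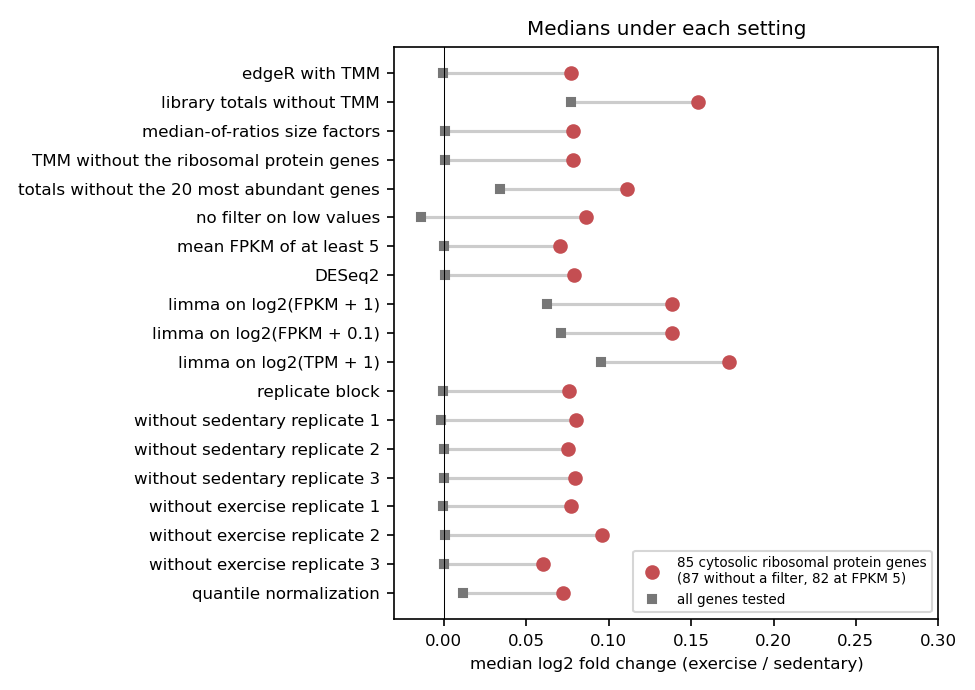
Median log2 fold change (exercise over sedentary) of the cytosolic ribosomal protein genes (circles) and of all genes tested (squares) under each way of processing the data and with each library left out. The circles lie to the right of the squares in every row, between 0.06 for the analysis without exercise replicate 3 and 0.17 on log2(TPM + 1). Rows that only rescale whole libraries move circles and squares together, so they are no separate check of the gap.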

How the data were processed

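Per the labels, RNA was extracted with TRIzol and read as pairs by DNBseq. Per the submitters' processing notes, tools included cutadapt, featureCounts and MultiQC, with build GRCm38.p6. Tool versions, aligner, annotation and strand setting: not given in the sources used here. The authors deposited estimated counts (not whole for 1165 of 16123 genes), FPKM and TPM for each of the 6 libraries. Their 6 average columns were not used. Library totals ran from 17941298 to 18371949 counts.

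Counts were rounded and genes whose FPKM averaged 1 or more were tested with edgeR 4.0.16 (R 4.3.3), TMM scaling and quasi-likelihood F tests with a prior count of 0.125, adjusted by Benjamini-Hochberg over all genes. The standard error was taken from the F statistic. DESeq2 1.42.0 on the counts and limma 3.58.1 on log2(FPKM + 1), log2(FPKM + 0.1) and log2(TPM + 1) were alternatives, 21 in all. Motifs were searched in RefSeq promoter windows. Named by rule were the 10 members with the largest rises past the threshold without overlap, those that fell, the 5 with the highest FPKM, the stalk, paralogs with their partners, and, within each pathway list, up to 3 genes a direction with the smallest p. Further members were named for their function after values were seen, and Dnajc2, Sesn1 and Sesn3 of the pathway lists were named outside the rule. Some genes that the rule names are not reported here. Members and lists were chosen with earlier results of these data known.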

Additional observations from a re-analysis of the deposited data

How the results depend on the processing

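The members' median log2 fold change lay above that of all genes under every setting run, and the counts of calls moved with scaling. Scaling alone moves members and other genes nearly alike, so such settings could not change the gap between these medians. The number that rose, 44 with edgeR and TMM, was 77 on library totals without TMM, 61 without the 20 most abundant genes in the totals, 66 and 65 with limma on log2(FPKM + 1) and log2(FPKM + 0.1), 74 on log2(TPM + 1), 22 with DESeq2, 0 against a 1.2-fold change and 28 with quantile normalization, added after seeing the data. Leaving out 1 library each gave 27 to 49, lowest without exercise replicate 3. The number that fell, 2, was 0 without TMM (0 at an unadjusted p under 0.05), with DESeq2 (1 unadjusted) and against a 1.2-fold change (0 unadjusted). It was 1 without the 20 most abundant genes, without a filter, with limma on FPKM or TPM and with quantile normalization, and 1 to 2 with a library left out. The median of 0.0769 was 0.154 without TMM (all genes 0.0771), 0.111 without the 20 most abundant genes (0.0341), 0.138 and 0.139 on FPKM (0.0626 and 0.0711) and 0.173 on TPM (0.0956), and 0.0600 to 0.0957 with a library left out. Over all genes, 34.5% rose and 11.7% fell without TMM, and 36.2% and 8.91% on TPM, against 19.1% and 19.0%. The share ratio of 1.10 was 1.07 on totals without the 20 most abundant genes and 1.12 on FPKM and TPM, and 1.10 to 1.11 with a library left out. Rpsa had a log2 fold change of 0.0246 on TPM (adjusted p = 0.655, limma). Rpl41 was at 0.0761 without TMM (adjusted p = 0.0429, edgeR). Rplp0 was at 0.0777 without TMM, 0.0717 with limma on log2(FPKM + 1), 0.0718 on log2(FPKM + 0.1) and 0.11 on TPM (adjusted p = 0.00322, 0.0220, 0.0217 and 0.00254). Same-numbered libraries did not deviate together (correlations -0.03, -0.02 and -0.03), so no pairing by number was seen. Low correlations cannot show that none was made. With a replicate block 44 rose, 2 fell and the median was 0.08. Members with whole counts in every library gave 40 of 75 higher. Well counted members had standard errors of 0.02 to 0.05, and with 3 libraries a group some differences larger than these were not resolved either. Rps3a1 stood at 0.057, above its standard error of 0.024, and was not called (adjusted p = 0.0524, edgeR). Rpl5 was called at 0.069, where the standard error was 0.027. Members that did not pass are therefore not shown to be unchanged.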
